A study of Homo sapiens with 24 samples.

Results

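The response of IMS-M2 cells to OTX in medium without folic acid was measured in 6 of the 24 libraries of the series: 3 libraries of cells treated with OTX and 3 of cells treated with DMSO, the solvent control. IMS-M2 is a human line of acute myeloid leukaemia (AML). The labels give OTX only by this abbreviation, with no dose or duration; from what is known of the study it is taken to be OTX015 (birabresib), an inhibitor of BET bromodomain proteins. Both groups of cells were without folic acid (-FA), so the lack of folic acid is shared and is not what OTX is compared with. The other libraries hold IMS-M2 with folic acid (+FA) and the AML line U937 in either medium, again with DMSO or OTX and 3 libraries a group, and are used here only where the OTX effect is compared. The question was which polyadenylated RNAs differ between OTX and DMSO in folate-deprived IMS-M2 cells. Of 23595 genes in the table, 11018 had a mean of at least 1 FPKM (the authors' unit, which counts fragments relative to transcript length and library size) in at least 1 of the 2 groups and were tested.

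BET proteins, such as BRD2 and BRD3, read acetylated lysines on histones and bring the elongation kinase P-TEFb to RNA polymerase II. HEXIM1 holds P-TEFb in an inactive complex, and its rise is a commonly used readout of BET inhibition. Folate carries carbon units for thymidylate and purine synthesis and for remethylation of homocysteine to methionine, the precursor of the methyl donor S-adenosylmethionine. In AML, BET inhibition is best known for lowering MYC and lineage genes that depend on large enhancers.

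OTX changed the level of 6977 of the 11018 genes, or 63.3%, at a Benjamini-Hochberg adjusted p below 0.05 in limma on log2(FPKM + 1). Of these, 3371 genes (30.6% of those tested) were higher and 3606 (32.7%) were lower. Most changes were small, with a median size of 0.47 on the log2 scale among the genes called, and 901 genes (8.18%) were called with a log2 change of at least 1. Of the genes with large changes most fell: 697 of the 901 were lower and 204 higher, and 125 fell and 21 rose by 2 or more on the log2 scale. All 3 OTX libraries lay on 1 side of all 3 DMSO libraries for 7549 genes, or 68.5%. The median change over all genes tested was -0.01. With each of the 6 libraries left out in turn, 5649 of the 6977 calls kept their direction and their side of the threshold every time. FPKM are shares of a library, so every change is relative to the other genes of that library, and in bulk RNA fewer cells of a kind and less RNA per cell cannot be told apart.

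**Figure D1:**
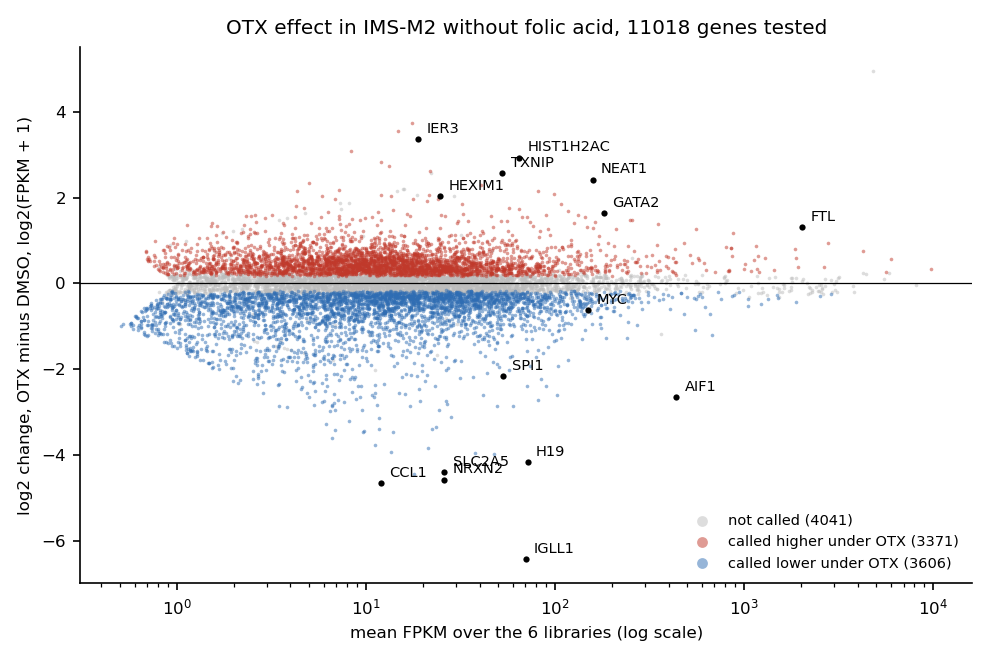
Each point is a gene; the x axis is its mean FPKM over the 6 libraries (log scale) and the y axis its log2 change, OTX minus DMSO, on log2(FPKM + 1). Red marks the 3371 genes called higher, blue the 3606 called lower and grey the genes not called. The falls reach further from 0 than the rises, with IGLL1 lowest at -6.42, and the unlabelled grey point at the upper right is MIR1282, listed above 0 in a single OTX library.

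Libraries of a group resembled each other more than those of different groups. Correlations of log2(FPKM + 1) were taken across the 11178 genes with 1 FPKM or more in at least 1 of the 6 libraries. They were 0.988 to 0.992 between DMSO libraries, 0.985 to 0.990 between OTX libraries and 0.932 to 0.945 between groups. These values share the large differences in level between genes. DMSO libraries listed 10757 to 10812 genes at 1 FPKM or more and OTX libraries 10441 to 10490. The FPKM of a library summed to 522659 to 583300, and OTX replicate 2 held 28868.7 FPKM of MIR1282, 4.998% of its sum, where the other 5 libraries listed 0. The markers bore out the myeloid label in part. The leukocyte and progenitor genes PTPRC (mean 61.7 FPKM in DMSO), CD33 (43.8), KIT (38.5), SPI1 (87.9) and CEBPA (58.3) were present, whereas MPO (0.44) was below 1 FPKM. Of the monocyte markers, CTSS (13.1), LYZ (12.5), CD68 (12.1) and ITGAM (4.53) were present, and CD14 (0.0398) and CSF1R (0.445) were below 1 FPKM. HBA1, MS4A1, EPCAM and KRT19 were listed at 0 in all 6 libraries. The megakaryocyte marker ITGA2B (71.9) was present, however, and the lymphoid marker CD3E had a DMSO mean above 1 FPKM.

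The genes that control the release of RNA polymerase II included the rise used as a readout of BET inhibition. HEXIM1 (chr17:43224684-43229468, hg19) measured 9.95, 9.24 and 8.27 FPKM in the DMSO libraries and 41.6, 39.7 and 39.7 in the OTX libraries. The groups did not overlap, and the log2 change was 2.03 ± 0.08 (SE, n = 3 a group; limma adjusted p = 2.7e-08). BRD2 measured 79.8, 79.9 and 82.9 FPKM in DMSO and 164, 152 and 176 in OTX, a log2 change of 1.01 ± 0.07 (adjusted p = 1.9e-06). BRD3 did not pass the test, with a log2 change of 0.15 (adjusted p = 0.089). Of 16 tested genes for BET proteins, P-TEFb and its partners, 6 rose and 3 fell, with a median change of 0.15. The share called was 56.2%, near the 63.3% of all genes tested. CCNT2, a cyclin of P-TEFb, rose by 0.27 but was not called without DMSO replicate 1 or OTX replicate 1, with no filter, or with 12 libraries. The 3 that fell were the negative elongation factor subunits NELFA (-0.39), NELFCD (-0.34) and NELFE (-0.29). CDK9, its kinase, had a change of 0.05 and was not called. Without DMSO replicate 1, 3 of the 16 rose, and over the leave-outs 3 to 5 fell (most without OTX replicate 3).

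Genes listed for the super elongation complex, which carries P-TEFb to chromatin, moved both ways, 5 higher and 5 lower of 12 tested. The list holds related genes that are not subunits of the complex. ELL2 rose from 6.05, 6.30 and 5.66 FPKM to 16.5, 18.4 and 15.7 (log2 change 1.35). AFF1, a scaffold of the complex and a fusion partner in leukaemia, rose by 1.34 and its relative AFF4 by 0.98. MLLT6, a related gene and not a subunit, fell from 16.1, 17.8 and 17.2 FPKM to 7.87, 7.11 and 7.86 (-1.07). EAF2 fell by 0.81 on the log2 scale. Among RNA polymerase subunits, POLR2A, the catalytic subunit of polymerase II, rose from 49.9, 60.4 and 68.1 FPKM to 135, 113 and 143 (1.12 ± 0.12, adjusted p = 3.02e-05). Of 31 subunits tested 4 rose and 8 fell; POLR3G (-0.85), POLR3D (-0.58) and POLR1B (-0.56), of polymerases III and I, were among those that fell.

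The 12 lowest log2 changes among non-overlapping genes with at least 5 FPKM in a group (small RNA symbols left out) ran from -6.42 to -3.61. They belonged to genes that are not of a single pathway: surface and adhesion molecules, a chemokine, transporters and a growth factor. IGLL1, the surrogate light chain of the pre-B cell receptor (chr22:23915313-23922495, hg19), measured 149, 127 and 143 FPKM in DMSO and 0.587, 0.506 and 0.818 in OTX. CCL1, a chemokine, measured 23.5, 26.0 and 22.9 FPKM with DMSO, and each OTX library listed it at 0. SLC2A5, the fructose transporter, measured 51.6, 49.5 and 51.1 FPKM in DMSO and 1.58, 1.48 and 1.32 in OTX (log2 change -4.40 ± 0.07, adjusted p = 2.14e-10). The choice of these genes required that the groups not overlap.

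SLC38A5, a glutamine and serine transporter, measured 92.5, 86.1 and 94.8 FPKM in DMSO and 4.83, 4.92 and 4.91 in OTX (-3.97). SELP, the adhesion molecule P-selectin, measured 67.8, 70.0 and 77.3 FPKM in DMSO and 3.77, 3.78 and 3.48 in OTX (-3.96). DEPTOR, an inhibitor of the growth kinase mTOR, measured 41.1, 40.1 and 40.8 FPKM in DMSO and 2.05, 1.74 and 1.89 in OTX (-3.85). For these genes the OTX mean was between 0.0466 and 0.0536 of the DMSO mean. The others named here were NRXN2 (-4.57), a neurexin; ANGPT1 (-4.45), angiopoietin 1; H19 (-4.17), an imprinted noncoding RNA whose locus is shared with another gene of the table; TNFRSF8 (-3.77), which encodes CD30; and PLAC8 (-3.61). In all, 60 genes had a mean of at least 5 FPKM in DMSO and under 1 in OTX. The opposite crossing was made by 13 genes, 11 of them small RNA symbols.

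The 12 highest log2 changes by the same rule ran from 3.36 to 2.14, and 7 of the 12 were histone genes, described separately. IER3, an early response gene that acts on cell survival (chr6:30710976-30712327, hg19), measured 2.77, 2.32 and 2.49 FPKM in DMSO and 33.4, 36.8 and 35.6 in OTX (3.36 ± 0.08, adjusted p = 1.16e-09). TXNIP, an arrestin that lowers glucose uptake and binds thioredoxin, measured 14.5, 14.4 and 14.8 FPKM in DMSO and 91.7, 89.5 and 92.0 in OTX (2.56 ± 0.06, adjusted p = 1.61e-09). NEAT1, the noncoding RNA that builds paraspeckles, measured 51.9, 47.7 and 45.9 FPKM in DMSO and 342, 212 and 251 in OTX (2.42 ± 0.15, adjusted p = 5.12e-07). The OTX libraries were close to each other for IER3 and TXNIP and spread more widely for NEAT1. DDIT4, a stress gene that restrains mTOR, measured 13.1, 12.7 and 13.4 FPKM in DMSO and 66.4, 59.3 and 81.0 in OTX (2.30). PIM2, a survival kinase, measured 30.2, 28.6 and 29.7 FPKM in DMSO and 132, 122 and 147 in OTX (2.14).

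**Figure D2:**
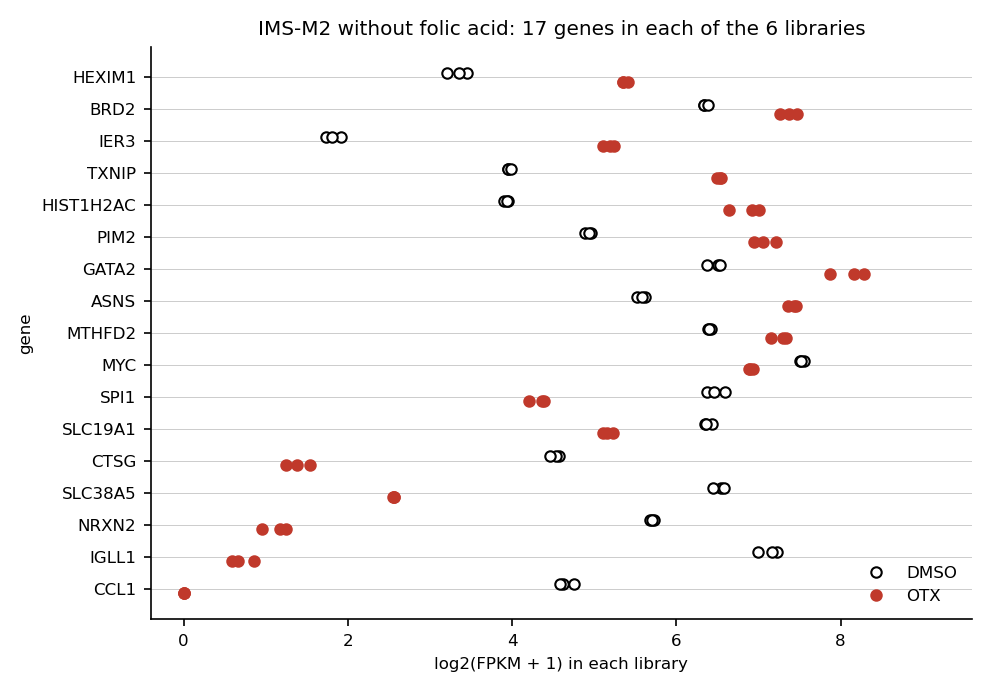
Each row is a gene and each point a library: open circles are the 3 DMSO libraries and red circles the 3 OTX libraries, on log2(FPKM + 1). For all 17 genes shown the groups are apart; IGLL1, NRXN2, SLC38A5 and CTSG lie far lower in OTX, and IER3, TXNIP and HIST1H2AC far higher.

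Most of the tested replication-dependent histone genes, which form large clusters on chromosomes 6 and 1, rose. Their messages mostly end in a stem loop in place of a poly(A) tail, so libraries of polyadenylated RNA sample only the share that is polyadenylated. Of the 72 histone genes listed, 32 were tested; 27 rose, none fell and 5 (HIST1H4B, HIST1H2BO, HIST1H2BN, HIST1H2BL and HIST2H2AB) were not called. The median change of the 32 was 1.02, against -0.01 over all genes tested. A gene that reached 1 FPKM only in OTX had to be higher there, so this count covers tested genes only. Summed over all 72 genes, histone FPKM were 128.5, 108.8 and 109.3 in the DMSO libraries and 478.8, 398.5 and 483.7 in the OTX libraries. OTX replicate 2 was the lowest of its group and still above every DMSO library.

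HIST1H2AC, an H2A gene (chr6:26124373-26124918, hg19), measured 14.4, 13.9 and 14.3 FPKM in DMSO and 128, 99.0 and 120 in OTX (2.93 ± 0.09, adjusted p = 9.78e-09). HIST2H2BE, an H2B gene on chromosome 1, measured 2.03, 2.45 and 2.201 FPKM in DMSO and 22.1, 20.4 and 22.8 in OTX (2.82). HIST1H2BD measured 5.93, 5.48 and 4.80 FPKM in DMSO and 41.6, 30.9 and 42.3 in OTX (2.61). HIST1H2BK had the highest DMSO level of the genes named here, 49.4, 40.3 and 39.9 FPKM, and a smaller log2 change of 1.34 to 108, 98.4 and 126 FPKM in OTX. All histone classes held genes that rose: 7 of 8 tested H2A genes, 9 of 12 H2B genes, 5 of 5 H3 genes, 5 of 6 H4 genes and the only H1 gene tested. Of the other leading genes, HIST1H2BC rose by 2.73, HIST1H3D by 2.33, HIST1H4H by 2.18 and HIST1H2BG by 2.16. In the stretch of chromosome 6 from the first to the last histone gene of the table (chr6:25726291-27861669, hg19), 22 of 26 tested histone genes rose. Of the 13 other genes tested in that stretch none rose and 6 fell, with a median change of -0.11.

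The bases before the start of 5 histone genes are printed because these genes rose together and their promoters can be compared. They are the 250 bases before each gene's start in RefSeq, build GRCh38.p14, written 5′ to 3′ on the gene's strand. Capitals mark matches of CCAAT (the CCAAT box) or TATAAA (the TATA box) on either strand, so that ATTGG and TTTATA are capitals too. HIST1H2AC lies at chr6:26123922-26124171 (plus strand), HIST1H2BD at chr6:26157871-26158120 (plus), HIST2H2BE at chr1:149886683-149886932 (minus), HIST1H2BK at chr6:27146859-27147108 (minus) and HIST1H4H at chr6:26285535-26285784 (minus).
HIST1H2AC: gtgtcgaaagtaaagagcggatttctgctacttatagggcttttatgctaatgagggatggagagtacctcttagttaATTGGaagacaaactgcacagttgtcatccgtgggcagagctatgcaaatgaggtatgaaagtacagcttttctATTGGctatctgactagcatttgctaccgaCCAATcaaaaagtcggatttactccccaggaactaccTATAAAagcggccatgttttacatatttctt
HIST1H2BD: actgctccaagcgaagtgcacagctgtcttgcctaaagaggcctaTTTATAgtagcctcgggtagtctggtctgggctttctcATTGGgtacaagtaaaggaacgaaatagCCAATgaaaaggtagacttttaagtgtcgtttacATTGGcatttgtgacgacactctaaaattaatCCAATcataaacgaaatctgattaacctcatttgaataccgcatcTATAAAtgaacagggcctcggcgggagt
HIST2H2BE: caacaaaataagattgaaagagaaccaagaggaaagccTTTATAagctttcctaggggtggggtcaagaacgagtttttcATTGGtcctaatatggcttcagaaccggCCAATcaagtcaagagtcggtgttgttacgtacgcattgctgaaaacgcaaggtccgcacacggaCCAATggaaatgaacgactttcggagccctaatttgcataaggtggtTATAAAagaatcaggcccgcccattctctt
HIST1H2BK: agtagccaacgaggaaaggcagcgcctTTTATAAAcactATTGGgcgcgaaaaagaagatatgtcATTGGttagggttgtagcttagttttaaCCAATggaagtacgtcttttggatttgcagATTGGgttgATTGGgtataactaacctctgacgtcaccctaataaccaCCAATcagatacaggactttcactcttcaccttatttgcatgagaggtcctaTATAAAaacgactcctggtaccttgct
HIST1H4H: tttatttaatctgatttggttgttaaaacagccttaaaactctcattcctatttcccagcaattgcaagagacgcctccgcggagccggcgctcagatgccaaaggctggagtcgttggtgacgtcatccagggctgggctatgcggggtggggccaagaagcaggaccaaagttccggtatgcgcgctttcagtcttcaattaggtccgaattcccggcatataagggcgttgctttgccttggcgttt

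HIST1H2BK held 6 CCAAT and 3 TATAAA matches in this window, HIST1H2BD 4 and 2, HIST2H2BE 3 and 2, and HIST1H2AC 3 and 1. HIST1H4H, which rose by 2.18, held none of either. RefSeq promoters (250 bases before to 50 after the start) were found for 26 of the 32 tested histone genes, and not for HIST1H2BC, HIST1H2BG, HIST2H2BC, HIST1H4C, HIST1H2BF and HIST1H2AH. CCAAT was in 22 of the 26 (84.6%) and TATAAA in 19 (73.1%). For the 21 of them called higher the numbers were 18 (85.7%) and 15 (71.4%). Of the histone genes not called, HIST1H2BO, HIST1H2BL and HIST2H2AB held both motifs, HIST1H2BN only CCAAT and HIST1H4B only TATAAA. Among all 35116 promoters of the table the shares were 34.6% and 11.5%, and among those of the 8883 matched tested genes 37.3% and 5.22%. CACGTG (the E-box) and TGACTCA (the AP-1 site) were in none of the 26 histone promoters, against 7.26% and 4.95% of all promoters and 10.5% and 2.77% of those of tested genes. TGATGNAA (the core of the amino acid response element) was in 1 (3.85%), against 3.62% and 1.6%. These are matches of letters on both strands, and no binding was measured.

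MYC fell by 0.62 on the log2 scale, from 186, 181 and 182 FPKM to 117, 119 and 121 (adjusted p = 2e-05). MYCN, its close relative, fell from 25.04, 25.7 and 21.8 FPKM to 7.47, 7.59 and 7.05 (-1.58 ± 0.08, adjusted p = 1.53e-07). MYB, a transcription factor of blood progenitors, fell from 102, 108 and 116 FPKM to 71.3, 78.3 and 70.7 (-0.56). In the network of MYC, its partners and antagonists, 6 of 11 tested members rose and 2 fell (MYC and MYCN). The share called was 72.7%, against 63.3% of all genes tested, and without DMSO replicate 1 only 4 members rose. MXD4 rose by 0.82, MXD1 by 0.72, MLXIP by 0.55 and MAX by 0.33. MYC still measured at least 117 FPKM in every OTX library.

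Most genes for making ribosomes fell, by small amounts. Of 39 ribosome biogenesis factors 33 fell and 1 rose, with a median change of -0.41; the rise, of RRN3 (0.26), was not called without DMSO replicate 1 or 3, without OTX replicate 1 or 2, or with no filter. PPAN fell from 65.0, 58.2 and 54.7 FPKM to 24.0, 23.3 and 23.6 (-1.29), NPM3 by 1.09, NOP16 by 0.99 and WDR74 by 0.97 on the log2 scale. Most mitochondrial ribosomal proteins fell too: 58 of 79 tested symbols fell and 4 rose (2 of these 4, MRPS31P5 and MRPL42P5, are pseudogene symbols), with a median of -0.45. MRPL23 fell from 121, 96.2 and 108 FPKM to 41.9, 42.0 and 46.5 (-1.29), and MRPL11 by 1.25. Of 16 mitochondrial tRNA synthetases 11 fell and none rose (median -0.33), with YARS2 at -0.90. Of 82 cytosolic ribosomal proteins 62 were not called, 15 fell and 5 rose, with a median of -0.10. Over the 6 leave-outs 10 fell (without DMSO replicate 1) to 24 (without DMSO replicate 2) and 3 rose (without DMSO replicate 3) to 7.

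Nucleotide synthesis was split. Of 15 genes of de novo purine synthesis 8 fell and 1 rose (median -0.23): PFAS fell by 0.93, IMPDH1 by 0.87 and ATIC by 0.71, whereas PPAT, the first enzyme of the pathway, rose by 0.41. Of 19 pyrimidine and ribonucleotide reductase genes 8 fell and 4 rose. The shares called, 60% of the purine and 63.2% of the pyrimidine list, were near the 63.3% of all genes tested. RRM2, the S-phase subunit of ribonucleotide reductase, rose from 85.7, 83.3 and 86.3 FPKM to 209, 219 and 210 (1.31 ± 0.06, adjusted p = 1.25e-07), and TK1, thymidine kinase, by 0.70. NME1 fell by 0.98, DHODH by 0.80 and CAD by 0.49. DNA replication genes leaned lower, 18 of 37 against 3 higher (median -0.18). The share called was 56.8%, against 63.3% of all genes tested (32.7% lower and 30.6% higher). Over the leave-outs 14 (without DMSO replicate 3) to 20 (without DMSO replicate 2) fell. POLE2 (-0.79), MCM5 (-0.72), MCM2 (-0.64) and POLE (-0.63) were among those that fell.

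Among genes of mitosis, 21 of 34 were not called, 9 rose and 4 fell (median 0.09). The share called was 38.2%, against 63.3% of all genes tested. MKI67, the proliferation marker, rose from 16.6, 19.4 and 21.2 FPKM to 25.8, 28.5 and 27.3 (0.50), and ANLN by 0.56. UBE2C, a ubiquitin enzyme of the anaphase complex, fell from 63.0, 60.7 and 57.4 FPKM to 22.2, 28.3 and 29.2 (-1.16). Without DMSO replicate 1, 6 mitosis genes rose, and 2 fell without DMSO replicate 2 and 7 without OTX replicate 2. Of 25 G1 cyclins, their kinases and inhibitors 9 rose and 9 fell. CDKN1A (p21) rose from 37.9, 34.2 and 35.5 FPKM to 101, 101 and 118 (1.55), and CDKN2D (p19) from 4.65, 3.62 and 3.82 to 20.8, 16.9 and 22.7 (2.06). CDKN2A fell from 8.93, 6.82 and 8.07 FPKM to 1.52, 2.04 and 1.72 (-1.69); its locus is shared with another gene. CCND3 rose by 1.49, whereas CCND2 fell by 0.47 and CDK4 by 0.57 on the log2 scale.

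**Figure D3:**
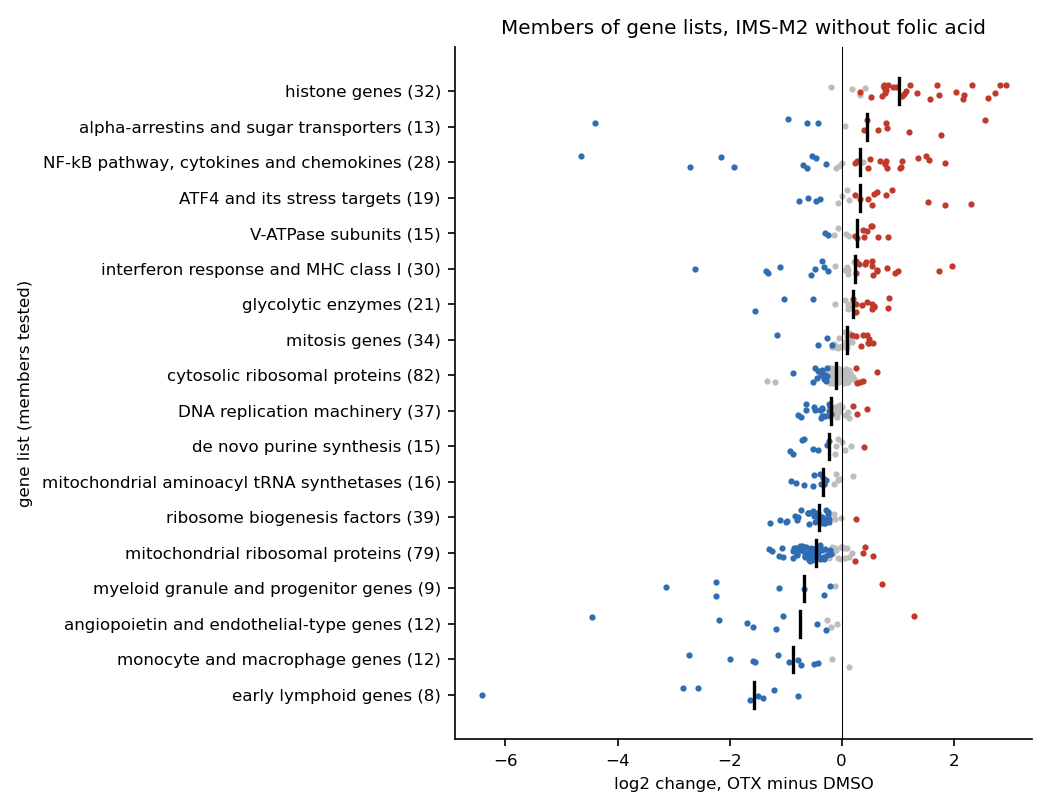
Each point is a tested member of 1 of the gene lists named on the y axis; the x axis is its log2 change, OTX minus DMSO, red and blue mark members called higher and lower, grey those not called, and black bars list medians. Histone genes lie almost wholly to the right (median 1.02) and early lymphoid genes wholly to the left (median -1.56). The ribosome lists have medians left of 0, with members on either side of it.

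Folate genes moved in both directions, and the median of the cytosolic list was 0.00 with 5 higher and 4 lower of 12 tested. SLC19A1, the reduced folate carrier that imports folate, fell from 85.8, 80.4 and 81.4 FPKM to 34.5, 33.6 and 36.4 (-1.22 ± 0.07, adjusted p = 2.68e-07). FOLR2, a folate receptor, fell from 1.55, 1.41 and 1.57 FPKM to 0.0685, 0.0468 and 0.260 (-1.16). MTHFD1, the cytosolic trifunctional enzyme, fell from 68.4, 70.6 and 74.6 FPKM to 50.2, 49.0 and 48.9 (-0.52). FOLR2 reached the limit of 1 FPKM only with DMSO, so it had to be lower in OTX. GGH, which trims folate polyglutamates, rose by 0.62. TYMS, thymidylate synthase, passed the test narrowly (0.17, adjusted p = 0.0499) and lost the call in every leave-out. Over the leave-outs 3 to 4 genes of this list rose, fewest without DMSO replicate 2.

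Of 10 mitochondrial folate enzymes 4 rose and 2 fell, or 60% called, near the 63.3% of all genes tested. MTHFD2 rose from 82.3, 84.8 and 83.1 FPKM to 156, 160 and 141 (0.86 ± 0.07, adjusted p = 4.44e-06). MTHFD1L, which acts after it in the same compartment, fell from 38.9, 34.1 and 38.6 FPKM to 17.4, 21.5 and 16.9 (-0.97). GCSH, of the glycine cleavage system, fell by 0.75. SHMT2, which feeds serine carbon into the pathway, rose by 0.27 but was not called without OTX replicate 3 (adjusted p = 0.065). In the methionine cycle 3 of 14 rose and 3 fell: ADI1, of methionine salvage, rose from 110, 104 and 111 FPKM to 236, 233 and 236 (1.11), and PEMT, which spends S-adenosylmethionine on phosphatidylcholine, fell from 29.99, 29.2 and 31.2 to 10.3, 10.3 and 11.7 (-1.41). MAT2A, which makes S-adenosylmethionine, was not called (0.15, adjusted p = 0.116), with overlapping libraries. Of 39 enzymes of DNA and histone methylation 11 rose and 11 fell, or 56.4% called, against 63.3% of all genes tested; CARM1 fell by 0.88 and DNMT3A by 0.69, and the demethylases KDM3A and KDM4B rose by 1.02 and 0.84.

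Targets of ATF4, the transcription factor of amino acid stress, were partly higher: 11 of 19 rose and 4 fell, with a median of 0.32, while ATF4 itself was not called (-0.07). ASNS, asparagine synthetase, measured 48.0, 45.1 and 47.0 FPKM in DMSO and 163, 175 and 172 in OTX (1.84 ± 0.07, adjusted p = 1.99e-08). CHAC1, which degrades glutathione, measured 5.13, 4.51 and 5.41 FPKM in DMSO and 16.3, 14.99 and 18.1 in OTX (1.54). PPP1R15A, which restores translation after stress, rose by 0.90. Other known targets went down in the same cells: TRIB3 fell from 22.5, 21.4 and 23.5 FPKM to 12.7, 12.7 and 13.2 (-0.76), STC2 by 0.59, and XPOT by 0.46 on the log2 scale.

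Of 14 serine and glutathione genes 7 rose and 4 fell. GCLC, the first enzyme of glutathione synthesis, rose by 0.93, GPX4, which reduces lipid peroxides, by 0.65 and PSAT1, of serine synthesis, by 0.48. CBS, which draws homocysteine out of the methionine cycle, fell by 0.61. Of 20 amino acid transporters 8 fell and 5 rose (3 without DMSO replicate 3), or 65% called, near the 63.3% of all genes tested. Beside SLC38A5, SLC1A3, a glutamate transporter, fell from 17.9, 20.5 and 21.1 FPKM to 2.23, 2.67 and 2.75 (-2.55), and SLC38A2 and SLC1A4, carriers of neutral amino acids, rose by 0.64 and 0.62.

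Sugar transporters and arrestins of the TXNIP family rose in 8 of 13 cases. SLC2A3, a glucose transporter, rose from 24.0, 26.4 and 25.9 FPKM to 85.4, 93.4 and 87.8 (1.77), SLC2A1 by 0.81, and ARRDC4, the closest relative of TXNIP, by 1.19. ARRDC2 fell by 0.96, and SLC2A5, described above, was also among the 4 that fell. Of glycolytic enzymes 11 of 21 were higher against 3 lower (median 0.21), or 66.7% called, near the 63.3% of all genes tested. LDHA rose from 603, 593 and 653 FPKM to 1084, 1040 and 1148 (0.82), and the 3 that fell were HK3 (-1.54), ENO3 (-1.03) and PFKM (-0.51), all at low or moderate levels. Of 26 sterol genes 12 rose and 6 fell, or 69.2% called, near the 63.3% of all genes tested. INSIG1, which holds back sterol synthesis, rose by 1.55. The 6 that fell were 3 to 5 in the leave-outs, fewest without DMSO replicate 3.

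Genes of blood cell identity mostly fell. Of the 26 early lymphoid genes listed, 8 were tested, and all 8 fell (median -1.56). A gene that reached 1 FPKM only with DMSO had to be lower in OTX, so the counts for these cell type lists are descriptions of the tested members. Beside IGLL1, LCK, a T-cell kinase, fell from 12.5, 11.7 and 13.0 FPKM to 0.938, 0.741 and 0.937 (-2.84), and CD79B, of the B-cell receptor, from 29.99, 21.6 and 27.2 to 3.63, 2.999 and 4.18 (-2.56). Of 12 monocyte and macrophage genes 10 fell and none rose (median -0.86). CTSS, a lysosomal protease of antigen processing, fell from 13.6, 12.5 and 13.2 FPKM to 1.01, 1.09 and 1.31 (-2.73), and CLEC7A, a receptor for fungal glucan, by 1.99 on the log2 scale. AIF1, a gene of macrophages, had the largest fall in FPKM itself, from 883, 698 and 696 to 109, 132 and 117 (-2.65).

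Granule and progenitor genes fell in 7 of 9 cases, and PRG2 rose by 0.71. CTSG, cathepsin G of neutrophil granules, fell from 22.7, 22.3 and 21.1 FPKM to 1.90, 1.38 and 1.61 (-3.13). CD34, the progenitor marker, fell from 14.002, 14.02 and 16.9 FPKM to 2.002, 2.73 and 2.44 (-2.24), and LYZ, lysozyme, from 11.9, 12.9 and 12.9 to 1.95, 1.93 and 1.72 (-2.24). Of 12 endothelial-type genes, many of which blood progenitors share, 8 fell and 1 rose (median -0.74). PECAM1 fell by 2.19, ENG by 1.70 and CDH5 by 1.59 on the log2 scale, and FLT1, a VEGF receptor, rose by 1.29. The 6 monocyte markers of the cell type check summed to 41.1 to 45.3 FPKM in DMSO and 12.3 to 16.2 in OTX, with 4 of the 6 at 1 FPKM or more. ITGA2B, the platelet integrin, fell from 77.9, 68.4 and 69.3 FPKM to 16.0, 15.5 and 16.7 (-2.09), and with GP9, GP1BA and HBD it made up the 4 of 6 tested erythroid and megakaryocyte genes that fell. The 6 erythroid and megakaryocyte markers of the cell type check summed to 68.4 to 77.9 FPKM in DMSO and 16.0 to 25.9 in OTX, nearly all of it ITGA2B, apart from HBB, listed at 10.4 FPKM in OTX replicate 2 and at 0 elsewhere. The lymphoid markers of that check summed to 1.77 to 1.95 FPKM in DMSO and 0.102 to 0.228 in OTX, and stromal and epithelial markers to 0.130 to 0.252 and 0.145 to 0.177.

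Transcription factors of blood cells fell in 14 of 28 cases and rose in 10 (median -0.22). SPI1 (PU.1), the master factor of myeloid cells, fell from 95.1, 82.1 and 86.7 FPKM to 19.95, 17.4 and 19.5 (-2.16 ± 0.08, adjusted p = 2.44e-08). ERG, a stem cell factor, fell from 23.0, 22.8 and 26.1 FPKM to 8.31, 8.78 and 8.95 (-1.36), and ID3 by 1.75. GATA2, a factor of stem cells and mast cells, rose from 89.9, 82.2 and 91.9 FPKM to 286, 234 and 311 (1.64 ± 0.10, adjusted p = 7.35e-07). RUNX1 rose from 50.03, 57.0 and 55.0 FPKM to 132, 132 and 128 (1.26). ID1 and ID2, relatives of ID3, rose by 1.41 and 1.55, the opposite direction to ID3. CEBPA, which drives granulocyte fate, was not called (0.02), with overlapping libraries.

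Of 19 HOX genes and partners, which mark many leukaemias, 7 rose and 5 fell, or 63.2% called, near the 63.3% of all genes tested: HOXB3 rose by 0.93 and HOXA9 by 0.87, and HOXA7 fell by 1.32 and HOXB8 by 0.97. Of 22 growth factor and cytokine receptors 10 rose and 6 fell. CSF2RB, the shared chain of the GM-CSF, IL-3 and IL-5 receptors, rose from 16.0, 15.8 and 16.1 FPKM to 46.9, 42.0 and 48.7 (1.46). TYRO3, a receptor kinase, fell from 16.5, 14.9 and 16.6 FPKM to 2.39, 2.24 and 2.15 (-2.38), and IL7R by 1.63. Of 17 leukocyte tetraspanins 8 fell, led by TSPAN32 (-2.27), and 6 rose, led by CD82 (1.22).

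Among inflammatory genes 15 of 28 rose and 9 fell. Members of the IkB family, which bind NF-kB, were among the rises: BCL3 rose from 14.1, 12.8 and 13.6 FPKM to 52.2, 46.4 and 55.0 (1.84), and NFKBIZ by 1.57. TNF rose from 9.08, 8.11 and 8.63 FPKM to 24.98, 21.9 and 23.8 (1.35), and CXCL10 by 1.51. Other chemokines fell in the same libraries: IL8 from 5.08, 4.79 and 5.27 FPKM to 0.354, 0.377 and 0.355 (-2.15) and CCL2 from 18.0, 14.5 and 15.6 to 0.775, 2.96 and 1.53 (-2.70). Interferon and MHC class I genes had a like division, 15 higher and 9 lower of 30. IRF7 rose by 1.97 and IFI6 by 0.95. The antiviral membrane protein IFITM1 fell from 195, 146 and 191 FPKM to 26.7, 24.4 and 33.5 (-2.61), IFITM2 by 1.10 and PSMB8, of the immunoproteasome, by 1.35.

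Immediate early genes rose in 11 of 20 cases. IER2 rose from 61.9, 53.03 and 51.1 FPKM to 178, 177 and 187 (1.69) and BTG2, an antiproliferative gene, by 1.59, while FOSL1 fell by 1.89 and FOS by 1.16 on the log2 scale. The MAP kinase phosphatase DUSP6 rose from 35.5, 39.1 and 37.95 FPKM to 162, 157 and 164 (2.07 ± 0.07, adjusted p = 1.07e-08), and DUSP5 by 1.58, while DUSP2 fell by 1.53; of 12 genes of this feedback family 7 rose and 4 fell.

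The BCL2 family, which sets the threshold of apoptosis, showed 7 rises and 4 falls in 16. The share called was 68.8%, near the 63.3% of all genes tested. Survival genes moved both ways: MCL1 rose from 40.4, 42.7 and 41.0 FPKM to 79.3, 87.4 and 80.5 (0.98) and BCL2L1 (BCL-XL) by 0.87, whereas BCL2A1 fell from 9.64, 8.63 and 8.60 to 1.39, 1.68 and 1.61 (-1.96). Of the genes that promote cell death, BIK fell by 1.81 and PMAIP1 (NOXA) rose by 0.69. BNIP3 and BNIP3L, receptors of mitophagy, rose by 1.44 and 1.07. Of 24 chaperones 10 fell and 4 rose, or 58.3% called, near the 63.3% of all genes tested. The rises were 2 without DMSO replicate 3 and 6 without DMSO replicate 1. HSPB1 fell from 1067, 903 and 862 FPKM to 394, 409 and 419 (-1.20).

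Polyamine genes, whose products support growth, gave 7 rises and 4 falls of 15. SAT1, which breaks polyamines down, rose by 1.02, and ODC1, which starts their synthesis, by 0.51, while SRM, spermidine synthase, fell by 0.72. Of 21 cytosolic tRNA synthetases 8 fell, led by VARS (-0.98), and 4 rose, led by TARSL2 (0.85). The share called was 57.1%, near the 63.3% of all genes tested. Of 16 host genes of small nucleolar RNAs 7 fell and 2 rose, or 56.2% called, again near that share. Without DMSO replicate 1, 4 of them fell. Only 4 of 20 imprinted genes were tested: besides H19, CDKN1C fell by 0.52, and PLAGL1 and GNAS rose by 0.62 and 0.47. Of 4 tested genes of the stromal and epithelial list 3 fell, PDGFRB (-0.73), KRT18 (-0.49) and KRT8 (-0.39).

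Abundant messages shifted as well. GAPDH, of glycolysis, rose from 5010, 4290 and 5095 FPKM to 7262, 6292 and 7971 (0.58 ± 0.12, adjusted p = 0.00172), the largest rise in FPKM among the genes called. FTL, the light chain of ferritin, rose from 1277, 1067 and 1154 FPKM to 2752, 2650 and 3273 (1.31), and its partner FTH1 by 1.17. TMSB4X, a thymosin that binds actin, rose by 0.94 and ACTG1, an actin, by 0.58. The small ribosomal proteins among the largest gains in FPKM were less certain: RPLP1 (0.32) and RPS2 (0.26) lost the call under quantile normalization (RPS2 its direction too), with no filter, and in 4 (RPLP1) and 5 (RPS2) of the 6 leave-outs. Of 15 iron genes 4 rose and 3 fell, with STEAP3, a ferrireductase, at -1.68. V-ATPase subunits, which acidify the lysosome, rose in 9 of 15 cases (median 0.28), led by ATP6V1B2 at 0.82. Lysosomal enzymes gave 10 rises, such as NPC1 and PSAP (both 0.91), and 8 falls of 29. That is 62.1% called, near the 63.3% of all genes tested. Respiratory chain subunits were mostly not called, 43 of 74, with 12 higher and 19 lower, and proteasome subunits likewise, 29 of 40.

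The shares of rises and falls differed with the span of the gene's locus. Among tested genes that share no locus with another, those spanning under 5 kb were higher in 24.4% and lower in 43.7% of 926 cases (median -0.16). For spans of 50 to 100 kb the shares were 41.8% higher and 23.1% lower of 1310 genes (median 0.12), and above 100 kb 40.8% and 25.7% of 1149 genes. Histone genes, IER3 and TXNIP are short and rose, so the trend did not hold for each gene. By level, genes with a mean under 2 FPKM were higher in 23.7% and lower in 44.5% of 1124 cases, and those above 200 FPKM in 26% and 21.5% of 339. Sharing of loci matters too: 2789 tested genes overlap another gene of the table, and whether the authors' counting used strand is not stated, so a partner's reads may be in the values of MYCN, BRD3, NELFA, NELFE, MAX, PPAN, NME1, TYMS, SHMT2, MAT2A, HOXA7, HOXA9, RUNX1, FTH1, CXCL10 and PSMB8, among those named. The part of span and level in the results of single lists was not tested. At the limit of 1 FPKM itself, DYSF and AKD1 were just inside it, with log2 changes of -0.45 (called) and 0.07 (not called).

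**Figure D4:**
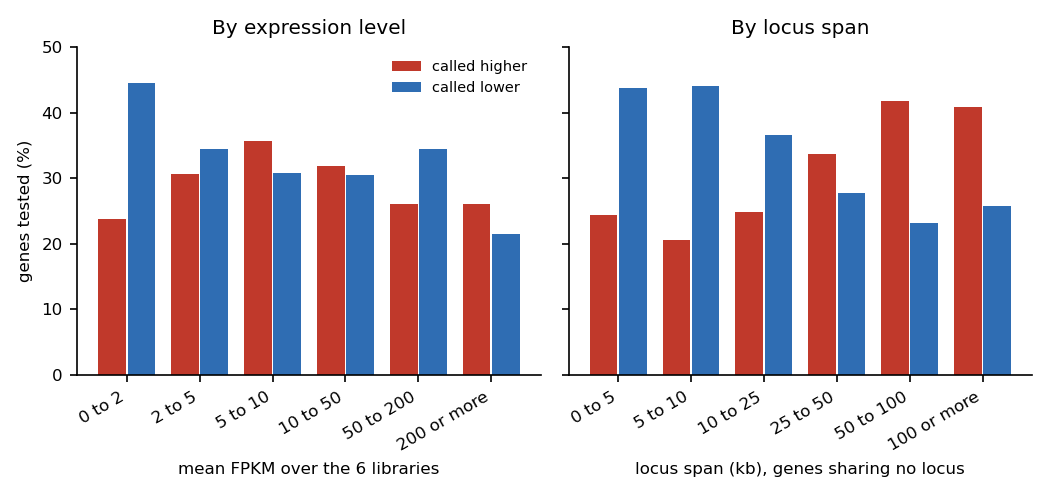
Bars give the percentage of tested genes called higher (red) or lower (blue) under OTX, by mean FPKM over the 6 libraries on the left and by locus span in kb, for genes that share no locus, on the right. Short genes are lower more often (43.7% under 5 kb) and genes above 50 kb are higher more often (41.8% and 40.8%).

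Whether OTX acted differently without folic acid was tested by subtracting the OTX change with folic acid from that without it over the 12 IMS-M2 libraries, each change taken within its own table and against its own DMSO libraries. With folic acid, 6271 of 11097 genes (56.5%) were called. Of the 6887 calls without folic acid that were also tested with it, 4644 (67.4%) were called the same way, which is 75.6% of the 6140 calls with folic acid, and 80 genes were called in opposite directions. Of 888 genes called without folic acid at a log2 change of at least 1, 862 were called the same way with it, 2 the opposite way, and 24 were not called.

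The difference itself was called for 779 of 11223 genes (6.94%), 374 higher and 405 lower without folic acid, but this count rested on single libraries. It was 82 without -FA OTX replicate 1, 1252 without -FA OTX replicate 2 and 3429 without +FA DMSO replicate 1, and 127 to 298 without each of the other 9. Rescaling each library to its table's median ratio turned the split to 448 higher and 260 lower. The correlation between +FA DMSO replicates 1 and 3 was 0.978, the lowest of any pair within the 4 groups. Of the 779 genes 78 kept the call in all 12 leave-outs, 60 higher and 18 lower. Those that fell away included all of the 8 lowest differences, such as RPS25 (-1.69) and EMC6 (-1.61), for which +FA DMSO replicates 2 and 3 lay below replicate 1.

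Genes of amino acid stress stood among the differences that kept the call. CHAC1 had the highest difference of the genes named, 2.05 ± 0.15 (adjusted p = 4.94e-05): with folic acid it went from 7.05, 6.09 and 6.26 FPKM in DMSO to 4.202, 3.64 and 4.93 in OTX, a change of -0.51, whereas without folic acid it rose. DDIT4 differed by 1.85 ± 0.17 (adjusted p = 0.0003), with 17.9, 19.1 and 18.5 FPKM in DMSO and 25.04, 21.99 and 30.5 in OTX when folic acid was present. PCK2, the mitochondrial enzyme that makes phosphoenolpyruvate, measured 35.97, 33.1 and 37.8 FPKM in DMSO and 48.4, 42.4 and 49.2 in OTX without folic acid, and 38.9, 40.9 and 41.9 in DMSO and 18.9, 14.4 and 19.3 in OTX with it (difference 1.55 ± 0.15, adjusted p = 0.000395). CHAC1 and PCK2 thus went up without folic acid and down with it. ASNS rose in both media, more without folic acid (difference 1.26 ± 0.17, adjusted p = 0.00332).

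Of the 19 tested genes of ATF4 and its targets 7 differed upwards and 1 downwards. Those 7 (DDIT4, TRIB3, ASNS, CHAC1, VLDLR, STC2 and SLC7A11) kept the call in all 12 leave-outs; TRIB3 and STC2 fell in both media, and less without folic acid. VLDLR and SLC7A11 rose without folic acid, by 0.32 and 0.24, and fell with it; the rise of SLC7A11 was not called without DMSO replicate 1, DMSO replicate 3 or OTX replicate 2. Amino acid transporters differed upwards in 10 of 21 cases, of which SLC7A5 (1.03), SLC7A11 (0.93) and SLC38A5 (0.80) kept the call. An upward difference can be a smaller fall. Of 20 transporters tested in each medium, 5 rose and 8 fell without folic acid, and 1 rose and 13 fell with it. SLC38A5 fell by 3.97 without folic acid, and SLC7A5 was not called there. Of 14 serine and glutathione genes 4 differed upwards, and PSAT1 (1.02), CBS (0.81) and SLC7A11 kept the call. Without folic acid PSAT1 rose and CBS fell by 0.61. The median difference over all genes tested was 0.03. Among folate enzymes, none of 12 cytosolic genes and 1 of 10 mitochondrial genes was called, against 6.94% of all genes tested. Lists this short cannot be told apart from that share by their counts. The difference for MTHFD2 was 0.50 (adjusted p = 0.0652). The tetraspanin CD53 fell less without folic acid (-1.18) than with it (-2.67), a difference of 1.49 that also kept the call. None of the differences of mitosis genes (0 higher, 6 lower of 34) kept the call in all 12.

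**Figure D5:**
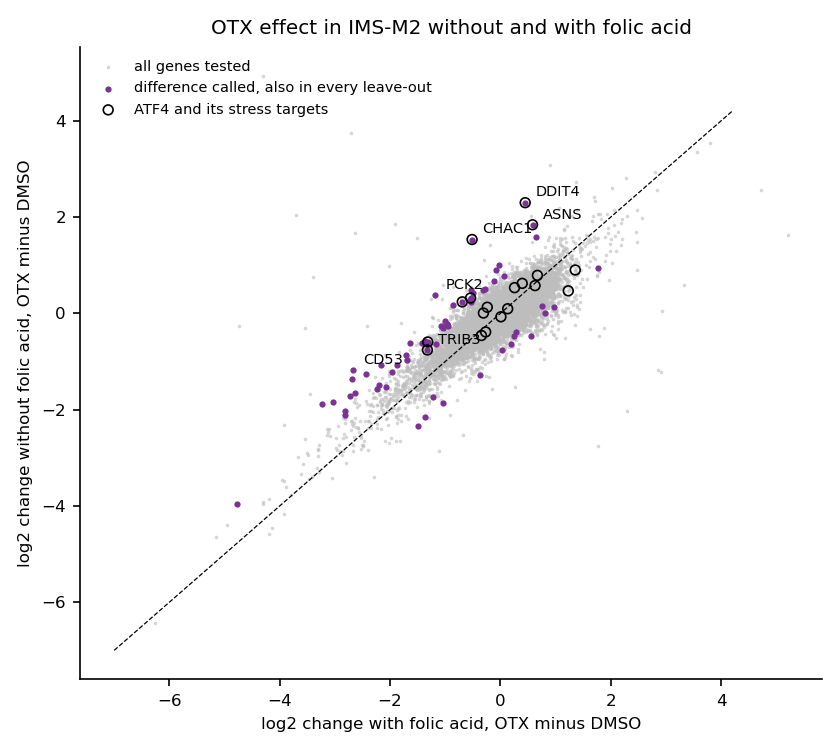
Each point is a gene; the x axis is its log2 change (OTX minus DMSO) with folic acid and the y axis that without it, and the dashed line marks equal changes. Purple marks genes whose difference kept the call in every leave-out and open circles ATF4 and its targets; CHAC1, DDIT4, ASNS and PCK2 lie above the line by 1.26 to 2.05.

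U937, an AML line with monocyte features, was compared in the same medium without folic acid. Of 6258 genes called in IMS-M2 and tested in both lines, 3388 (54.1%, and 62.1% of the 5458 calls in U937) were called the same way in U937, and 419 genes were called in opposite directions. The difference between the lines was called for 5051 of 12011 genes (42.1%), 2471 higher and 2580 lower in U937. U937 had a mean under 1 FPKM in both groups for IGLL1, CCL1, ANGPT1, NRXN2, H19, SELP and SLC38A5, which were among the highest differences. PRSS57, a serine protease of granules, was above 1 FPKM with DMSO in both lines: it went from 118, 91.5 and 112 FPKM to 12.1, 13.6 and 16.1 in IMS-M2 and from a mean of 1.20 to 4.23 FPKM in U937, a difference of 4.14 ± 0.31 (adjusted p = 1.06e-06).

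MYC fell in both lines from similar levels but by different amounts. In U937 it went from 182, 184 and 166 FPKM to 23.2, 18.5 and 18.9, a log2 change of -3.08 against -0.62 in IMS-M2 (difference -2.46 ± 0.12, adjusted p = 3.27e-08). GBP5, an interferon-induced GTPase, rose in IMS-M2 from 7.12, 7.59 and 8.45 FPKM to 36.4, 34.0 and 35.8 (2.06), and in U937 its mean was 1.34 FPKM with DMSO and 0.785 with OTX (difference -2.45). With 55.2% of 11043 genes called in U937, ribosome biogenesis factors had a median change of -1.03 in U937 and -0.41 in IMS-M2, and monocyte genes a median of 0.41 in U937, where 13 of 24 rose, and -0.86 in IMS-M2. The monocyte genes tested were not the same in both lines, 12 in IMS-M2 and 24 in U937. The difference was called for MS4A3, CYBB, TGM5, CLTCL1, FCER2 and TBXA2R too, which were below 1 FPKM in IMS-M2 in both groups.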

How the data were processed

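Polyadenylated RNA was sequenced with stranded TruSeq libraries, per the labels' protocols. The authors deposited a table of FPKM per gene for each line and medium, with a column for each library; the unit is taken from the layout and the fractional values, since the headers do not name it. The submitters' processing notes list, without roles, the build hg19 and the tools Cuffdiff 2.2.1, TopHat2 2.1.1 and bcl2fastq 2.17.1.14; the gene annotation, strand setting and scaling between libraries are not given in the sources used here. Low values showed no steps of whole reads, so depth is unknown and no counting interval is given.

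The values were analysed on log2(FPKM + 1), a scale that understates changes of low genes, keeping genes whose mean reached 1 FPKM in some group. limma 3.58.1 in R 4.3.3, with an intensity trend and Benjamini-Hochberg adjustment over all genes tested, was fitted without a replicate block to the 6 libraries, and to 12 libraries for each difference between OTX effects. Calls are at an adjusted p below 0.05. The labels do not say that replicates came from separate cultures, so p-values measure only the spread between these libraries.

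The members and the 50 gene lists were chosen with earlier results of these data known, so lists are described by counts and medians. Counts of members called without folic acid stand against 63.3% of all genes tested called, 30.6% higher and 32.7% lower. Genes are named by rule: the 12 highest and 12 lowest changes, the 8 largest rises and falls in FPKM, up to 4 called members of a list in each direction, the 8 highest and lowest differences, and genes given whatever their result. POLR3D, XPOT, PFKM, CXCL10, SLC2A1 and PMAIP1 were named after their values were seen. A few genes that the rule names, and a list, are not reported here. On simulated data of 11018 genes for the OTX effect without folic acid, 98% of changes of 1 and 74% of changes of 0.5 (log2) were recovered. For the difference between media, over 11223 genes, 91% and 32% were, and for that between the lines, over 12011 genes, 77% and 16%. Each simulation changed 100 genes by each size, none of them at the lowest levels, with independent normal noise. In the data 6977 of 11018 genes were called for the OTX effect, so these rates hold only for the simulated setting. Alternatives were the pseudocount, the filter, rescaling, quantile normalization, small RNA symbols left out, no trend, all 12 IMS-M2 libraries, a replicate block and each library left out. Promoters were read from RefSeq, build GRCh38.p14, and matched by symbol.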

Additional observations from a re-analysis of the deposited data

Results flagged for a closer look

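The OTX effect in IMS-M2 differed between the media, by the test of the difference itself in limma, for the genes below. Each value is the log2 change without folic acid minus that with it. A positive value can be a smaller fall, as for CD53, CBS, SLC38A5, STC2 and TRIB3. Values that kept the call with each of the 12 libraries left out were those of CHAC1 (2.05), DDIT4 (1.85), PCK2 (1.55), CD53 (1.49), ASNS (1.26), SLC7A5 (1.03), PSAT1 (1.02), SLC7A11 (0.93), VLDLR (0.86), CBS (0.81), SLC38A5 (0.80), STC2 (0.72) and TRIB3 (0.56). The other positive differences lost the call in at least 1 leave-out: C21orf90 (1.601), FAM45A (1.59), CRIPAK (1.41) and HIST1H2BC (1.35). So did all 8 of the lowest differences, RPS25 (-1.69), EMC6 (-1.61), LOC100652739 (-1.45), GNG10 (-1.45), MRPL54 (-1.43), DNAAF3 (-1.41), RPL24 (-1.37) and TMEM183A (-1.35), for each of which +FA DMSO replicates 2 and 3 lay below replicate 1.

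Between the lines, the OTX effect without folic acid in U937 minus that in IMS-M2 was highest for IGLL1 (6.09), CCL1 (4.65, listed at 0 in IMS-M2 with OTX), ANGPT1 (4.46), PRSS57 (4.14), NRXN2 (4.05), H19 (4.02), SELP (3.96) and SLC38A5 (3.78). It was lowest for MS4A3 (-3.62), CYBB (-3.33), TGM5 (-2.82), CLTCL1 (-2.57), FCER2 (-2.56), MYC (-2.46), GBP5 (-2.45) and TBXA2R (-2.45). These 16 differences kept the call in the 20 alternatives run for them. All but those of PRSS57, MYC and GBP5 belong to genes with a mean under 1 FPKM in both groups of 1 of the lines.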

How the results depend on the processing

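Of the 6977 calls without folic acid, 4301 kept direction and threshold in all 16 alternatives; the filter at 5 FPKM tested only 5421 of them, so the others could not be kept. The count was 5442 of 8550 genes with a filter at 5 FPKM, 7951 of 17103 with no filter, 7175 with quantile normalization (55% higher, against 48.3%) and 6186 (without OTX replicate 1) to 6946 with a library left out. The count at a log2 change of at least 1, 901, was 361 with a pseudocount of 5 FPKM, which shrinks changes, and 1330 with 0.1. The difference between the lines, 5051 genes, ranged from 3887 to 5884 over the filters and from 4168 to 5778 over the leave-outs; its 991 genes of at least 1 were 401 and 1587 with the pseudocounts of 5 and 0.1.

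The difference between the media, 779 genes, was the least stable: 445 with no filter (269 higher, 176 lower), 1057 without small RNA symbols, 708 after median rescaling (448 higher, 260 lower) and 82 to 3429 with a library left out. Its 80 genes of at least 1 were 28 with a pseudocount of 5, 150 with 0.1 and 29 with no filter. The cause was not tested.

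The replicate block gave 7504 calls without folic acid and 1920 for the difference between the media (935 higher, 985 lower). Same-numbered OTX and DMSO libraries had correlated deviations of 0.07, 0.21 and 0.18, and each library correlated best with its own number. Libraries of unlike number had values from -0.176 to 0.0155. Whether equal numbers mark paired libraries was not settled, and the calls given in the text are without a block. For the difference between the lines a block by column number, chosen after seeing the data, gave 5728 calls; the U937 columns without folic acid are numbered from 0 and the labels from 1, so these numbers are not the labels'.

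Under quantile normalization RPLP1 came to 0 (adjusted p = 1) and RPS2 to -0.058. Changes that were not called and took the other sign were HIST1H2BL (0.0083) under quantile normalization and, over the leave-outs, CEBPA (-0.054 to 0.081), LOC100652739 (-0.137 to 0.058) and TMEM183A (-0.268 to 0.158, called at the low end, without OTX replicate 2, with an adjusted p of 0.0239). Of 800 list medians under the alternatives 205 moved by more than the spread between libraries and 21, of 10 lists, had the other sign: super elongation, receptors, cytosolic folate, methionine, amino acid transporters, methylation enzymes, iron, proteasome, lysosomal and imprinted genes. Without read counts, the precision of low genes cannot be stated, and shares of a library say nothing of RNA per cell.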
